A study of Mus musculus and Homo sapiens with 12 samples.

Results

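The lysine isoacceptors are the tRNAs that carry lysine, and the cytosolic pool consists of tRNA-Lys-CTT, which pairs with AAG codons, and tRNA-Lys-TTT, which reads AAA codons. The anticodons are written here as in DNA. All reads on gene lines named tRNA-Lys in the genome-wide tRNA-charging assay were taken, which gave 12 CTT and 5 TTT lines among 224 mouse tRNA genes and 10 CTT and 8 TTT lines among 260 human tRNA genes. The lines were summed by anticodon, so that 2 of 51 mouse and 2 of 49 human anticodons are described.

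Lysine is attached to both isoacceptors by lysyl-tRNA synthetase, a class IIb enzyme that is a member of the cytosolic multi-synthetase complex. The synthetase for glutamate and proline, EPRS, is part of the same complex and is the target of halofuginone (HF), which blocks the attachment of proline to tRNA-Pro. Uncharged tRNA is a well known activator of GCN2, an eIF2 kinase of the integrated stress response, and the study asked which tRNAs lose their amino acid in cells in which GCN2 is activated by HF or by UV-B.

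Charging was measured in mouse embryonic fibroblasts (MEF) and in NTERT cells, an immortalized human keratinocyte line, with 3 libraries in each of 4 groups and 12 libraries in all. The MEF cells received 100 nM HF, or no HF, in medium with dialyzed serum, for 6 h by the sample labels and for 3 h by the study's methods. NTERT cells were given 400 J/m2 of UV-B and 3 h of recovery, or were left untreated. The study gives the NTERT cells as wild type. It calls the libraries of a group biological replicates, and each comparison is within a single cell line.

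In the assay, periodate and a basic solution remove the last nucleotide of an uncharged tRNA but not that of a charged one, and reads with the full CCA end are therefore taken as charged, those that stop at CC as uncharged. The percentage of charging is the number of charged reads over charged plus uncharged reads. Reads on tRNA genes numbered from 617693 to 6286863 per MEF library and from 253693 to 1992671 per NTERT library. They made up 3.43% to 9.52% of all reads in the MEF control libraries and 19.1% to 27.8% in the HF libraries, and whether this plays a part in the MEF results was not tested. As a check of the labels, tRNA-Pro-AGG was charged at 50.3%, 39.0% and 51.9% in MEF control libraries 1 to 3 and at 26.5%, 13.0% and 6.46% in HF libraries 1 to 3.

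Lysine tRNA was among the most highly charged tRNAs in both cell lines. Over the reads of both isoacceptors, charging was 83.5% ± 6.66 (SD, n = 3) in MEF control cells, 91.6% ± 2.70 (SD, n = 3) in HF-treated MEF cells, 71.9% ± 0.90 (SD, n = 3) in NTERT control cells and 73.4% ± 4.89 (SD, n = 3) in UV-treated NTERT cells. In each of the 4 groups this was the highest mean among 21 amino acids, with selenocysteine counted as 1 of them. The neighbours in this order lay within the spread of the libraries. In MEF control cells glutamine followed at 78.3% ± 11.1 (SD, n = 3), and in NTERT control cells selenocysteine followed at 71.3% ± 3.74 (SD, n = 3).

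Within single libraries, lysine ranked first in all 3 MEF control libraries, with the next amino acid lower by 0.55, 8.05 and 2.12 percentage points in libraries 1 to 3. It was first in HF libraries 2 and 3 and was in position 5 in HF library 1, where methionine led at 96.6%. In NTERT cells it was first in control libraries 1 and 3, in position 3 in control library 2, and in positions 4, 2 and 3 in UV libraries 1 to 3. Among 48 anticodons in MEF control libraries, tRNA-Lys-CTT was in positions 1 to 2 and tRNA-Lys-TTT in positions 2 to 3. In HF libraries 1 to 3, CTT was in positions 10, 3 and 3 and TTT in positions 9, 6 and 16. Among 47 anticodons in NTERT cells, CTT was in positions 4 to 6 in control and 5 to 9 in UV libraries. TTT was in positions 2 to 4 in control and 6 to 8 in UV libraries. These positions are descriptions of the libraries, and no test was made of them.

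tRNA-Lys-CTT was charged at 83.5%, 76.9% and 90.1% in MEF control libraries 1 to 3 and at 93.3%, 93.1% and 89.1% in HF libraries 1 to 3. HF libraries 1 and 2 lay above every control library, whereas HF library 3 lay below control library 3, so that the groups overlapped. The means were 83.5% ± 6.58 (SD, n = 3) and 91.8% ± 2.39 (SD, n = 3). The test was made on the log2 ratio of charged over uncharged reads, and on this scale the difference was 1.10 (standard error 0.73, 95% interval -0.33 to 2.54, adjusted p = 0.183 from limma). This standard error was drawn by limma from the spread of all 48 anticodons tested, and it was the same for each of them.

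tRNA-Lys-TTT was charged at 82.8%, 73.9% and 90.0% in the MEF control libraries and at 93.9%, 91.8% and 81.8% in the HF libraries. Here HF library 3 lay below control libraries 1 and 3. The means were 82.3% ± 8.09 (SD, n = 3) and 89.2% ± 6.43 (SD, n = 3), and the difference in the log2 ratio was 0.88 (95% interval -0.55 to 2.31, adjusted p = 0.271 from limma). Neither isoacceptor passed the threshold of 0.05, which 9 of the 48 anticodons tested in MEF cells did (18.8%). The anticodons of a library shifted together, so the MEF charging intervals may be too narrow and the p-values too small. This holds for single lines and amino acids as well. Relative to the library median, 3 of the 48 anticodons passed.

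In NTERT cells, tRNA-Lys-CTT was charged at 71.5%, 72.4% and 70.8% in control libraries 1 to 3 and at 78.5%, 70.7% and 70.7% in UV libraries 1 to 3. UV library 1 stood above the control libraries and the other UV libraries lay just below them. The means were 71.6% ± 0.79 (SD, n = 3) and 73.3% ± 4.52 (SD, n = 3), with a log2 difference of 0.14 (95% interval -0.55 to 0.82, adjusted p = 0.986 from limma).

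For tRNA-Lys-TTT in NTERT cells, charging was 75.6%, 76.2% and 72.1% in the control libraries and 84.7%, 70.6% and 67.3% in the UV libraries. The UV libraries thus lay on both sides of the controls, with library 1 again the highest. The means were 74.6% ± 2.19 (SD, n = 3) and 74.2% ± 9.28 (SD, n = 3), and the log2 difference was 0.03 (95% interval -0.93 to 0.99, adjusted p = 0.986 from limma). Of the 47 anticodons tested in NTERT cells, 0 passed the threshold in limma (0%), and the count at an unadjusted p under 0.05 was also 0. Without UV library 1 the log2 differences were -0.06 for CTT and -0.41 for TTT, and without control library 3 that of TTT was -0.06, all short of the threshold.

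**Figure D1:**
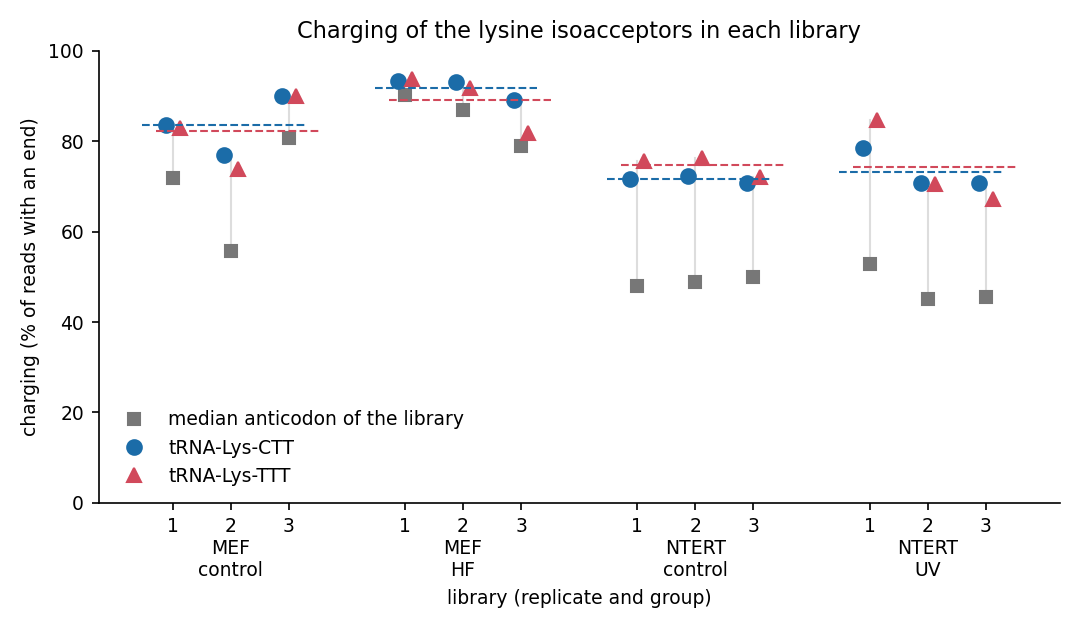
Percentage of charging (vertical axis, % of reads with a CCA or CC end) of tRNA-Lys-CTT (blue circles) and tRNA-Lys-TTT (red triangles) in each of the 12 libraries, with the median over the anticodons tested in that library (grey squares) and the group means (dashed lines). Both isoacceptors lie above the library median in all 12 libraries, and HF library 3 and UV library 1 differ from the other treated libraries of their group.

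The libraries differed from each other in charging as a whole, and the lysine isoacceptors moved with them. The median percentage over the anticodons tested was 71.9%, 55.7% and 80.7% in MEF control libraries 1 to 3 and 90.1%, 86.9% and 78.9% in HF libraries 1 to 3. tRNA-Lys-CTT lay above that median by 11.6, 21.3 and 9.36 percentage points in the control libraries and by 3.21, 6.15 and 10.2 in the HF libraries. tRNA-Lys-TTT lay above it by 10.9, 18.2 and 9.31 points in the control libraries and by 3.74, 4.88 and 2.96 in the HF libraries. Both were above the median in every library. A margin in points has less room where the library median is high, so the MEF groups are compared below on the log2 scale.

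After the median log2 ratio of each library was subtracted, the difference between HF and control turned negative for both isoacceptors. It was -0.25 for CTT (95% interval -0.88 to 0.37, adjusted p = 0.759 from limma) and -0.48 for TTT (95% interval -1.09 to 0.13, adjusted p = 0.523 from limma). On this scale every HF library lay below every control library for TTT, which was so for 12.5% of the anticodons. By the size of their change, CTT was in position 31 and TTT in position 37 of 48, counted from the highest. The median change over the 48 was 1.21 before the subtraction and -0.15 after it. As measured, 45 of the 48 anticodons had a positive difference, and 18 had one after the subtraction.

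In NTERT cells the library medians were closer together, at 48.0%, 48.8% and 49.9% in the control libraries and 52.8%, 45.0% and 45.5% in the UV libraries. tRNA-Lys-CTT lay above them by 20.9 to 23.6 points in control cells and by 25.2 to 25.7 points in UV-treated cells. For tRNA-Lys-TTT the margins were 22.2 to 27.6 points in control and 21.8 to 31.9 points in UV-treated cells, which overlapped. The log2 difference relative to the median was 0.20 for CTT (adjusted p = 0.935 from limma) and 0.10 for TTT (adjusted p = 0.935 from limma). On this scale every UV library lay above every control library for CTT, as for 10.6% of the anticodons. CTT held position 17 and TTT position 26 of 47 in the order of the changes.

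**Figure D2:**
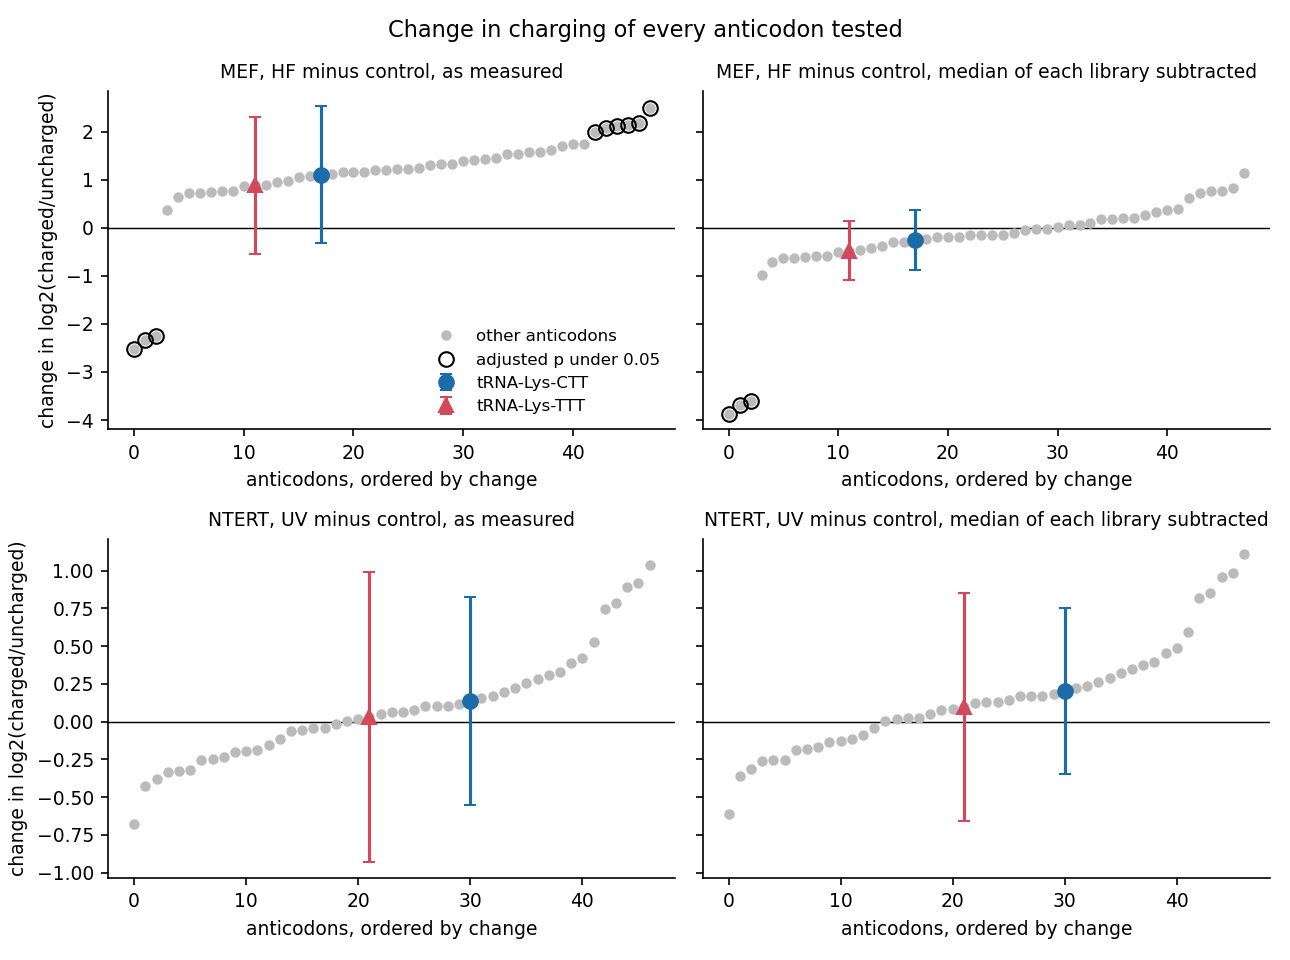
Difference in the log2 charging ratio, charged over uncharged reads (vertical axis), of every anticodon tested, ordered from the lowest to the highest, for HF minus control in MEF cells (top) and UV minus control in NTERT cells (bottom), as measured (left) and after subtraction of the median of each library (right). Bars are 95% intervals of the lysine isoacceptors, and open rings mark an adjusted p under 0.05. CTT and TTT are at 1.10 and 0.88 in the upper left panel and at -0.25 and -0.48 in the upper right, and their intervals include 0 in all 4 panels.

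The SD of the log2 ratio of tRNA-Lys-CTT was 0.73 in MEF control, 0.43 in HF-treated, 0.056 in NTERT control and 0.35 in UV-treated cells. The median SD over the anticodons of the same groups was 0.84, 0.66, 0.27 and 0.61, so that CTT varied less than the median anticodon in each of the 4 groups. For tRNA-Lys-TTT the SDs were 0.84, 0.92, 0.16 and 0.77. The Wilson 95% intervals of CTT, which cover counting error only, were at most 0.61 percentage points wide in MEF libraries, where the control libraries spanned 76.9% to 90.1%. In NTERT libraries they were up to 2.37 points wide, more than the span of the NTERT control libraries from 70.8% to 72.4%. For TTT the widest interval was 2.62 points in MEF libraries and 7.36 points in NTERT libraries, the latter in control library 2 with 512 reads with an end. UV library 1 had the fewest such reads, 491, and an interval of 6.36 points.

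The isoacceptors were charged to a similar degree in most libraries. The log2 ratio of CTT minus that of TTT, taken within a library so that the level of the library cancels, was 0.07, 0.24 and 0.01 in MEF control libraries 1 to 3 and -0.13, 0.26 and 0.86 in the HF libraries. HF library 3, with CTT at 89.1% and TTT at 81.8%, had the widest gap, 7.24 percentage points. The means of 0.11 ± 0.12 (SD, n = 3) and 0.33 ± 0.49 (SD, n = 3) differed by 0.22. An exact permutation test, two-sided, over all 20 labelings of the libraries gave p = 0.6, where the smallest p it can give is 0.1.

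In NTERT cells the same quantity was -0.30, -0.28 and -0.09 in the control libraries and -0.60, 0.01 and 0.23 in the UV libraries. TTT was charged slightly more than CTT in all 3 control libraries, by 1.32 to 4.09 percentage points, and the UV libraries went both ways. In control libraries 2 and 3 the Wilson intervals of CTT and TTT overlapped. The means of -0.23 ± 0.12 (SD, n = 3) and -0.12 ± 0.43 (SD, n = 3) differed by 0.11 with p = 0.7 in the exact permutation test. With the read ratios below, 4 such tests were made, and the adjusted p was 0.7 for both differences in charging.

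The gene lines behind the isoacceptors stand for distinct sequences, because the authors built the human reference with 1 copy of each identical tRNA sequence, and all lysine line names in both species end in the same copy number. Lines that differ by few bases can still share reads, so the split between them is uncertain. In the mouse RefSeq annotation (GRCm38.p6), 24 loci on 12 chromosomes are annotated as lysine tRNAs with anticodon CTT and 2 loci on 1 chromosome as those with TTT, all 73 nucleotides long, and their names are not paired with those of the lines. The 2 TTT loci are fewer than the 5 mouse TTT lines, so these locus counts do not cover every line.

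In MEF cells 5 of the 17 lysine lines had a mean of at least 50 reads with an end and were tested. Lys-CTT-2-1 and Lys-CTT-3-1 held almost all CTT reads. Lys-CTT-2-1 took 53.3%, 48.6% and 68.7% of them in control libraries 1 to 3 and 54.0%, 54.0% and 48.5% in the HF libraries. Control library 3 stood apart from the other 5 libraries in this split. Lys-CTT-3-1 took 46.6%, 51.4% and 31.3% in control libraries and 46.0%, 45.9% and 51.4% in HF libraries. Lys-TTT-1-1 held 96.1% to 96.9% of the TTT reads in all 6 libraries. The 9 CTT and 3 TTT lines below the minimum held at most 0.015% and 0.301% of the reads of their isoacceptor, and 4 of these 12 lines had no read in any library.

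Lys-CTT-2-1 was charged at 85.6%, 78.7% and 91.4% in MEF control libraries 1 to 3 and at 93.5%, 94.2% and 92.2% in HF libraries 1 to 3. It was the only tested lysine line in which every HF library exceeded every control library, which was so for 28.1% of the 139 lines tested. Its log2 difference was 1.19 (95% interval -0.30 to 2.68, adjusted p = 0.186 from limma). Lys-CTT-3-1 was charged at 81.3%, 75.3% and 87.4% in control libraries and at 93.1%, 91.8% and 86.2% in HF libraries, a log2 difference of 1.12 with an adjusted p of 0.200 from limma. Lys-CTT-2-1 was the higher of the pair in all 6 libraries, by 0.36 to 6.02 percentage points.

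Lys-TTT-1-1, the main TTT line, was charged at 82.9%, 73.7% and 90.1% in the control libraries and at 93.8%, 91.7% and 81.8% in the HF libraries, and HF library 3 was again the low one. The log2 differences of the 5 tested lines ran from 0.79 for Lys-CTT-4-1, which had only 34 to 472 reads with an end per library, to 1.19 for Lys-CTT-2-1. None of the 5 passed the threshold in limma, against 20 of 139 lines in all (14.4%), and their adjusted p-values ran from 0.186 to 0.340. All 5 differences turned negative after subtraction of the library median, from -0.57 for Lys-CTT-4-1 to -0.17 for Lys-CTT-2-1.

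In NTERT cells 8 of the 18 lysine lines were tested. CTT reads were spread over Lys-CTT-2-1 with 36.1% to 41.7%, Lys-CTT-1-1 with 28.0% to 36.4%, Lys-CTT-4-1 with 21.7% to 27.3% and Lys-CTT-3-1 with 2.66% to 6.99% of them. Lys-TTT-3-1 held 55.5% to 68.2% of the TTT reads, and the other tested TTT lines were Lys-TTT-6-1, Lys-TTT-4-1 and Lys-TTT-2-1. The 6 CTT and 4 TTT lines below the minimum held up to 2.09% and 15.2% of the reads of their isoacceptor.

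Some CTT lines of NTERT cells differed in their percentage of charging, and no test was made between lines. Lys-CTT-4-1 was charged at 74.1%, 76.9% and 72.7% in control libraries 1 to 3 and at 80.0%, 79.5% and 80.2% in UV libraries 1 to 3. Every UV library exceeded every control library, as in 4.17% of the 168 lines tested, and the log2 difference was 0.43 (95% interval -0.36 to 1.23, adjusted p = 0.999 from limma). Lys-CTT-1-1 was charged at 70.1%, 71.8% and 69.9% in the control libraries and at 75.9%, 67.3% and 66.9% in the UV libraries, and its log2 difference was -0.02 with the same adjusted p. In all 6 libraries Lys-CTT-4-1 was higher than Lys-CTT-1-1, by 2.82 to 13.3 percentage points, and higher than Lys-CTT-2-1, by 0.42 to 13.5 points. In UV library 1 its Wilson 95% interval overlapped those of both lines. Other pairs had no fixed order, as Lys-CTT-3-1 was above Lys-CTT-4-1 in 3 of the 6 libraries and Lys-CTT-1-1 above Lys-CTT-2-1 in 2.

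Lys-TTT-2-1 went the other way, with 74.4%, 92.6% and 78.8% in NTERT control libraries 1 to 3 and 69.2%, 73.9% and 65.9% in UV libraries 1 to 3. Every UV library was below every control library, as in 3.57% of the lines, with a log2 difference of -1.09 (95% interval -2.29 to 0.12, adjusted p = 0.999 from limma). This line rested on 13 to 164 reads with an end per library, and its Wilson 95% intervals were up to 45.0 points wide. Lys-TTT-3-1, the main TTT line, was charged at 75.0%, 76.8% and 71.2% in the control libraries and at 86.7%, 70.0% and 66.6% in the UV libraries, with a log2 difference of 0.10. Of the 8 tested lines 4 had a positive and 4 a negative difference. None passed the threshold in limma, nor did any other of the 168 lines (0%), of which 3 had an unadjusted p under 0.05.

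**Figure D3:**
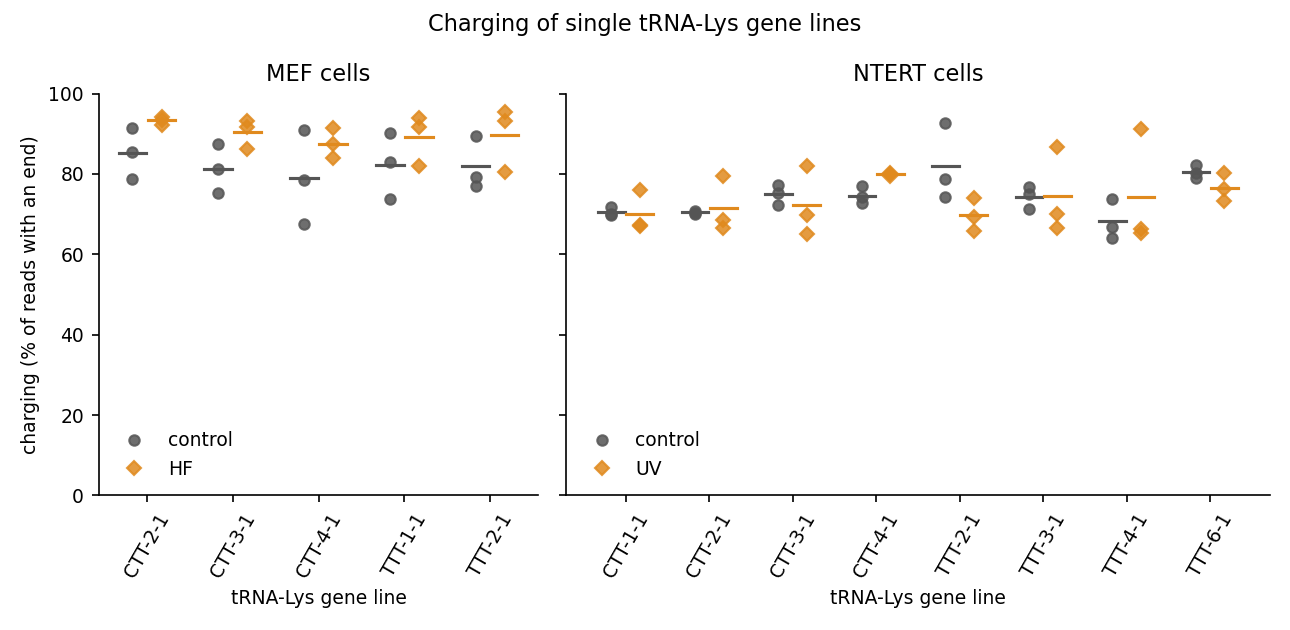
Percentage of charging (vertical axis, % of reads with a CCA or CC end) of the tRNA-Lys gene lines with a mean of at least 50 reads with an end, in MEF cells (left, 5 lines) and NTERT cells (right, 8 lines). Points are single libraries, 3 per group, and short lines are group means. In MEF cells the groups overlap for each line but Lys-CTT-2-1, and in NTERT cells for each line but Lys-CTT-4-1 and Lys-TTT-2-1.

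With the reads of both isoacceptors combined, lysine was charged at 83.5%, 76.8% and 90.1% in MEF control libraries 1 to 3 and at 93.4%, 93.0% and 88.5% in HF libraries 1 to 3. The log2 difference was 1.08 (95% interval -0.34 to 2.50, adjusted p = 0.172 from limma), while 2 of 21 amino acids passed the threshold (9.52%). In NTERT cells the log2 difference was 0.13 (95% interval -0.52 to 0.77, adjusted p = 0.924 from limma), and 0 of 21 amino acids passed in limma (0%), with 0 at an unadjusted p under 0.05.

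The isoacceptors differed widely in how many reads they gave. tRNA-Lys-CTT took 15.8%, 13.0% and 10.1% of the tRNA reads in MEF control libraries 1 to 3 and 14.0%, 12.3% and 12.1% in HF libraries 1 to 3. tRNA-Lys-TTT took 0.902%, 0.778% and 0.663% in the control and 1.00%, 0.867% and 1.00% in the HF libraries. In NTERT cells CTT took 4.81%, 5.02% and 5.15% in the control and 3.71%, 5.43% and 4.65% in the UV libraries. TTT took 0.588%, 0.583% and 0.463% in the control and 0.395% to 0.460% in the UV libraries. A share of reads is relative to the other tRNAs of a library and therefore says nothing about the amount per cell.

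After TMM scaling, the log2 difference in share between HF and control was 0.15 for CTT (95% interval -0.53 to 0.84, adjusted p = 0.833 from limma) and 0.45 for TTT (95% interval -0.23 to 1.14, adjusted p = 0.400 from limma). Neither passed the threshold, which 7 of 48 anticodons did (14.6%). For TTT every scaled HF value exceeded every control value, as for 18.8% of the anticodons. UV-treated NTERT cells differed from their controls by -0.18 for CTT (95% interval -0.94 to 0.57, adjusted p = 0.824 from limma) and by -0.42 for TTT (95% interval -1.16 to 0.31, adjusted p = 0.540 from limma). The sum of both, with TMM factors computed over amino acids, differed by 0.12 in MEF cells (adjusted p = 0.809 from limma). In NTERT cells the sum differed by 0.08 (adjusted p = 0.915 from limma), opposite in sign to both isoacceptors, so the direction depends on the scaling. For TTT every scaled UV value was below every control value, as for 2.13% of the 47 anticodons, which makes it the only one of them. No anticodon passed in NTERT cells (0%), with 4 at an unadjusted p under 0.05. Among single lines, no lysine line passed the threshold for its share in MEF cells, where 15 of 139 lines did (10.8%), or in NTERT cells, where 0 of 168 lines passed in limma (0%), with 8 lines at an unadjusted p under 0.05. Every scaled HF value exceeded every control value for Lys-TTT-1-1 (log2 difference 0.42, adjusted p = 0.338 from limma) and Lys-TTT-2-1 (0.22, adjusted p = 0.562 from limma), as for 19.4% of the MEF lines. Every scaled UV value was below every control value for Lys-TTT-4-1 (-0.60, adjusted p = 0.714 from limma), as for 4.76% of the NTERT lines.

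The ratio of CTT to TTT reads, from which the size of the library cancels, was 17.5, 16.7 and 15.3 in MEF control libraries 1 to 3 and 14.0, 14.2 and 12.1 in HF libraries 1 to 3. The groups did not overlap. The ratio had a geometric mean of 16.5 in control and 13.4 in HF-treated cells, a log2 difference of -0.30, and the two-sided exact permutation test gave p = 0.1, the smallest it can give, with an adjusted p of 0.4 over the 4 tests. In NTERT cells the ratio was 8.18, 8.61 and 11.1 in the control and 9.36, 11.8 and 11.8 in the UV libraries. These overlapped, and the log2 difference of 0.24 had p = 0.2 in the exact permutation test and an adjusted p of 0.4.

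**Figure D4:**
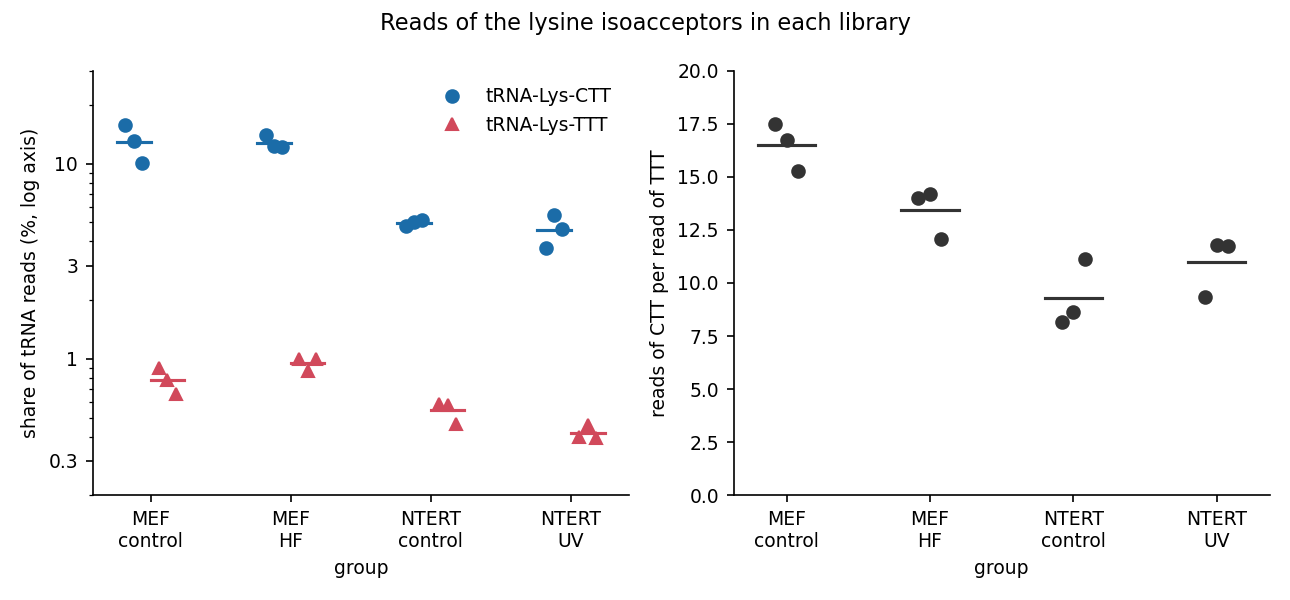
Left, share of all tRNA reads (vertical axis in %, log axis) of tRNA-Lys-CTT (blue circles) and tRNA-Lys-TTT (red triangles) in the 3 libraries of each group, with group means as lines. Right, reads of CTT per read of TTT in the same libraries, which lie between 15.3 and 17.5 in MEF control and between 12.1 and 14.2 in HF-treated cells.

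The lysine isoacceptors were a larger part of the charged than of the uncharged reads. In MEF control cells they made up 16.3% ± 4.22 (SD, n = 3) of all charged and 8.94% ± 1.95 (SD, n = 3) of all uncharged tRNA reads, and in HF-treated cells 14.4% ± 0.95 (SD, n = 3) and 9.87% ± 1.20 (SD, n = 3). In NTERT control cells the parts were 6.08% ± 0.52 (SD, n = 3) and 2.98% ± 0.31 (SD, n = 3), and in UV-treated cells 5.49% ± 1.82 (SD, n = 3) and 2.65% ± 0.69 (SD, n = 3). The part of the charged reads was above that of the uncharged reads in all 12 libraries. This restates that lysine charging was above the charging over all tRNA reads in each library, and is not a separate result.

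The charging values rest on the reads that carry an end, and their part differed between the cell lines. In MEF control libraries 91.0% to 94.1% of tRNA-Lys-CTT reads and 89.8% to 94.2% of tRNA-Lys-TTT reads ended in CCA or CC, and in HF libraries 96.1% to 96.9% and 96.1% to 96.7%. In NTERT libraries only 42.7% to 52.8% of CTT reads and 34.6% to 49.2% of TTT reads carried an end.

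The part with an end was higher in HF-treated than in control MEF cells for both isoacceptors, and every HF library exceeded every control library. The log2 ratio of reads with an end to reads without one rose by 1.11 for CTT (95% interval 0.19 to 2.02, adjusted p = 0.0274 from limma) and by 1.10 for TTT (95% interval 0.18 to 2.02, adjusted p = 0.0274 from limma). Both standard errors were 0.47 and were drawn mostly from the spread of all 48 anticodons. The anticodons of a library shifted together, so these intervals may be too narrow and these p-values too small. The lysine isoacceptors shared this with most anticodons, as 38 of 48 passed the threshold (79.2%) and 72.9% had groups that did not overlap. Relative to the library median the differences were 0.03 for both, with adjusted p = 0.947 from limma. The call for CTT was lost without control library 1 (1.16, adjusted p = 0.0532), HF library 2 (1.03, adjusted p = 0.0947) or HF library 3 (1.08, adjusted p = 0.0772), and that for TTT without control library 1 (adjusted p = 0.0573) or any of the HF libraries (adjusted p from 0.0621 to 0.0835).

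Among the lysine lines of MEF cells, Lys-CTT-3-1 rose by 1.16 (adjusted p = 0.0420 from limma) and Lys-CTT-4-1 by 1.41 (adjusted p = 0.0231 from limma) in the log2 ratio of reads with an end to reads without one, while the other 3 tested lines had adjusted p-values from 0.0518 to 0.121. Over all lines 67 of 139 passed (48.2%). Relative to the library median both calls were lost, with 0.02 for Lys-CTT-3-1 (adjusted p = 0.972 from limma) and 0.27 for Lys-CTT-4-1 (adjusted p = 0.711 from limma). In NTERT cells the log2 differences were 0.20 for CTT (adjusted p = 0.803 from limma) and 0.14 for TTT (adjusted p = 0.828 from limma). No anticodon passed there (0%), with 3 at an unadjusted p under 0.05, and neither did any of the 168 lines (0%), with 9 at an unadjusted p under 0.05.

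The anticodons outside lysine whose charging was nearest to that of the lysine isoacceptors were mostly those of glycine. Nearness was measured as the root mean square difference in the log2 ratio over the 6 libraries of a cell line, with no test. In MEF cells the nearest to tRNA-Lys-CTT were Arg-CCG at 0.30, Gly-CCC at 0.32 and Gln-CTG at 0.44, and the nearest to tRNA-Lys-TTT were Gly-CCC at 0.30, Arg-CCG at 0.36 and Gly-TCC at 0.41. The distance between the lysine isoacceptors was 0.38, against a median of 1.31 for CTT and 1.16 for TTT over the 46 other anticodons. In NTERT cells Gly-GCC was nearest to CTT at 0.18, followed by Asn-GTT at 0.33 and Gly-CCC at 0.35. For TTT the nearest was tRNA-Lys-CTT itself at 0.31, ahead of Gly-GCC at 0.44, Met-CAT at 0.47 and Gly-CCC at 0.48.

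The other class IIb synthetases attach asparagine and aspartate. tRNA-Asn-GTT was charged at 76.6% ± 9.97 (SD, n = 3) in MEF control and 87.6% ± 4.34 (SD, n = 3) in HF-treated cells, and tRNA-Asp-GTC at 44.2% ± 25.3 (SD, n = 3) and 71.4% ± 5.83 (SD, n = 3). None of the 4 class IIb anticodons passed the threshold in MEF cells, and their median log2 difference was 1.09, beside 1.21 over all 48. In NTERT cells none passed either, and the median was 0.08, beside 0.06 over all 47.

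Amino acids whose synthetases sit with lysyl-tRNA synthetase in the multi-synthetase complex accounted for 24 of the anticodons tested in MEF cells. Of these, 3 passed with higher charging (Arg-TCT, Glu-CTC and Glu-TTC) and 3 with lower charging (Pro-AGG, Pro-CGG and Pro-TGG) in HF-treated cells, beside 3 of the 24 anticodons outside the list and 9 of 48 in all. The median log2 difference was 1.21, equal to that over all 48 to 2 decimals. Without control library 1 or HF library 2, 0 of the 48 passed. Relative to the library median only the 3 Pro anticodons passed, all with lower charging, and the median of the 24 was -0.15. In NTERT cells 0 of 24 passed and the median was 0.06. tRNA-Pro, whose synthetase HF inhibits, had log2 differences of -2.52 to -2.25 as measured in the same MEF libraries. Relative to the library median they were -3.87 to -3.61. The differences of both lysine isoacceptors were positive as measured and between -0.48 and -0.25 relative to the library median.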

How the data were processed

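Per the labels, total RNA was oxidized, deacylated and ligated to barcoded adapters, and tRNA libraries were sequenced. The authors trimmed the reads, removed those under 20 nucleotides, aligned them with Bowtie2 to tRNA genes and deposited 3 whole-number read counts per gene, without normalization and without column names. The 3 values were read as all, charged (CCA) and uncharged (CC) reads. In the human files Glu and Leu are written GlT and LeT, and were read as Glu and Leu. The reference used for mouse is not given in the sources used here.

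Reads were summed by anticodon and amino acid. Log2((charged + 0.5)/(uncharged + 0.5)) was tested with limma 3.58.1 (lmFit, eBayes; R 4.3.3) for features with a mean of at least 50 reads with an end, with Benjamini-Hochberg adjustment within a cell line and a threshold of 0.05. The spread is shared in limma over the features of a fit as if they varied independently, which features of a library need not do. Shares were tested as log2 counts relative to the library total after TMM scaling (trims of 30% and 5%), and isoacceptor differences with two-sided exact permutation tests. Scripts ran in Python 3.11.15 with scipy 1.17.1, numpy 2.4.6 and pandas 2.3.3. The steps were tested on simulated data in which anticodons varied independently, without shifts of a whole library, so this does not cover such shifts.

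Named were both isoacceptors, their sum, each lysine gene line with a mean of at least 50 reads, tRNA-Pro as a check, the 3 nearest anticodons, and 2 lists by synthetase. The members, lists and tests were chosen with earlier results of these data known. Alternatives were another pseudocount, other minimums, ratios relative to the library median, a replicate block, equal gene weights, quasi-binomial regression, the study's test of percentages, other scalings, and leaving out each library. Whether PCR copies were collapsed is not given in the sources used here, so intervals cover counting error only.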

Additional observations from a re-analysis of the deposited data

Results flagged for a closer look

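In the control libraries, the log2 charging ratio of tRNA-Lys-CTT minus that of tRNA-Lys-TTT was positive in all 3 MEF libraries (0.01 to 0.24) and negative in all 3 NTERT libraries (-0.30 to -0.09). The means of the cell lines differed by 0.33. The item was picked because the cell lines differed in it, so their opposite signs are not separate evidence. The Wilson intervals of CTT and TTT overlapped in MEF control libraries 1 and 3 and in NTERT control libraries 2 and 3. The signs in those libraries are therefore uncertain from counting error alone. The intervals lay apart in MEF control library 2 and NTERT control library 1. The difference between the control means was not tested, and the cell line, the species and the tRNA reference cannot be told apart in it.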

How the results depend on the processing

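No charging or share result of a lysine isoacceptor, of their sum or of a lysine line passed the threshold under any alternative run, and the directions were as follows. In MEF cells, subtraction of the library median, alone or with a replicate block, turned the charging differences to -0.25 (CTT), -0.48 (TTT), -0.28 (sum), -0.17 (Lys-CTT-2-1), -0.24 (Lys-CTT-3-1), -0.57 (Lys-CTT-4-1), -0.48 (Lys-TTT-1-1) and -0.21 (Lys-TTT-2-1). It took the reads with an end from called to 0.033 (CTT) and 0.029 (TTT) in MEF cells, and to -0.039 and -0.099 in NTERT cells. It turned Lys-CTT-1-1 charging in NTERT cells to 0.044, also with the replicate block. In NTERT cells, quasi-binomial regression gave -0.27 for TTT, -0.0041 for the sum, -0.14 for Lys-CTT-2-1, -0.23 for Lys-TTT-3-1 and -0.074 for Lys-TTT-4-1, the test of percentages gave -0.46 percentage points for TTT, and equal gene weights gave -0.17 for TTT and -0.044 for the sum. The cause was not tested. Subtraction also lowered the anticodons called in MEF charging from 9 to 3, and library totals without TMM or median-of-ratios factors lowered those called in MEF share from 7 to 1.

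Leaving out 1 library at a time in MEF cells gave -0.14 to 0.33 for the share of CTT, 0.92 to 1.24 and 0.87 to 1.31 for the reads with an end of CTT and TTT, and -0.039 to 0.45 for CTT minus TTT in charging. The anticodons called in MEF charging numbered 0 without control library 1 or HF library 2, 3 without HF library 1, 4 without control library 2, 17 without HF library 3 and 22 without control library 3. Those called in MEF share numbered 1 to 9, and in MEF reads with an end 24 (without control library 2) to 38. In NTERT cells, charging ranged from -0.064 to 0.24 (CTT), -0.41 to 0.30 (TTT), -0.092 to 0.24 (sum), -0.23 to 0.086 (Lys-CTT-1-1), -0.19 to 0.29 (Lys-CTT-2-1), -0.52 to 0.11 (Lys-CTT-3-1), -0.43 to 0.42 (Lys-TTT-3-1) and -0.17 to 0.96 (Lys-TTT-4-1). The share of CTT ranged from -0.30 to 0.025, the reads with an end of TTT from -0.058 to 0.38, and CTT minus TTT in charging from -0.067 to 0.35.

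Same-numbered libraries did not deviate together in every pair (correlations from -0.49 to 0.02 in charging, from -0.35 to 0.16 in MEF share, and of -0.27, 0.67 and 0.48 for numbers 1 to 3 in NTERT share), and 0 of 12 libraries correlated best with their own number in charging, so the numbers were not taken as pairs. The replicate block by itself left the values as they were, with adjusted p = 0.290 for CTT and 0.374 for TTT in MEF charging, and changed no call of a lysine result, while the anticodons called in MEF charging went from 9 to 0. The 2 count models listed as alternatives were not run. Few reads limit Lys-CTT-4-1 in MEF cells (34 to 472 per library) and Lys-TTT-2-1, Lys-TTT-4-1 and Lys-TTT-6-1 in NTERT cells (13 to 574).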
